A study of Mus musculus with 4 samples.

Results

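Presentation of intracellular peptides by major histocompatibility complex (MHC) class I molecules was followed through 9 genes, H2-K1, H2-D1, B2m, Tap1, Tap2, Psmb8, Psmb9, Nlrc5 and Irf1, out of 22916 genes with a symbol on the array. The genes were listed by symbol for their known roles, with earlier results of these data already known. Every probe whose accession mapped to one of those symbols was used, which gave 14 probes. Pancreatic islet cells of male C57BL/6 littermates aged 60 weeks were dispersed into single cells and kept ex vivo for 24 h with 10 μM of either a scrambled peptide or MOTS-c, a short peptide encoded in the mitochondrial genome. There were 2 arrays per group, numbered 1 and 2 for scrambled and 2 and 3 for MOTS-c in the labels, and both groups shared strain, sex, age, peptide dose and time. Each array carried RNA of a whole islet cell preparation with no sorting, so fewer cells of a type and less RNA per cell cannot be told apart. The comparison asks whether class I presentation genes differed at the RNA level in aged islet cells after 24 h of MOTS-c.

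Class I molecules consist of a heavy chain, the light chain beta-2-microglobulin and a peptide. The peptide is cut in the cytosol by the proteasome, whose interferon-inducible form carries exchanged catalytic subunits, is pumped into the endoplasmic reticulum by the TAP transporter and is loaded there before the complex moves to the cell surface. Islet endocrine cells carry class I molecules, and a raised class I level on beta cells is a known feature of autoimmune diabetes, in which cytotoxic T cells recognize it. NLRC5 is the transactivator of class I genes, and IRF1 is an interferon-induced transcription factor that acts on many genes of this pathway.

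Of the 9 genes, 6 lie on mouse chromosome 17 within the MHC region, in the order H2-K1, Psmb9, Tap1, Psmb8, Tap2 and H2-D1, while B2m, Nlrc5 and Irf1 lie on chromosomes 2, 8 and 11. The sequences upstream of H2-K1, H2-D1 and B2m are shown because these genes encode the class I molecule itself and had the highest differences between the groups. The bases between Psmb9 and Tap1 are shown because the pair is transcribed in opposite directions from one stretch of DNA. Sequences are from RefSeq windows on GRCm38.p6, each cut to the 250 bases before the annotated start, and 7 of the 9 genes had a window. H2-K1 is at chr17:34000348-34000597 on the minus strand, H2-D1 at chr17:35262844-35263093 and B2m at chr2:122147437-122147686 on the plus strand, and the stretch between the starts of Psmb9 and Tap1 at chr17:34187331-34187555 is written on the plus strand. Capitals mark matches, on either strand, to the interferon response element in the forms GAAANNGAA and GAANNGAAA, the STAT site TTCNNNGAA, the NF-kB site in the forms GGGNNTTCC and GGGNNNTTCC, the CREB box TGACG and the NF-Y box CCAAT.
H2-K1: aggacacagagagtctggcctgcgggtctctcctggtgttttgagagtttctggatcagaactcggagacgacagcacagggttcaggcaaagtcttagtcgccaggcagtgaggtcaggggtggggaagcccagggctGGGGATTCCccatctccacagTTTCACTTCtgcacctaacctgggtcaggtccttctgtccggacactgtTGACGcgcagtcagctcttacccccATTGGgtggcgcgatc
H2-D1: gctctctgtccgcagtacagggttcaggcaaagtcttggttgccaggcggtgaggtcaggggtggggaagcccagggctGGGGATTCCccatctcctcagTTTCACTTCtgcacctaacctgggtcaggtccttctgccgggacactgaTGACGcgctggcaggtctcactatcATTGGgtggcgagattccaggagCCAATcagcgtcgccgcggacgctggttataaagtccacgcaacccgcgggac
B2m: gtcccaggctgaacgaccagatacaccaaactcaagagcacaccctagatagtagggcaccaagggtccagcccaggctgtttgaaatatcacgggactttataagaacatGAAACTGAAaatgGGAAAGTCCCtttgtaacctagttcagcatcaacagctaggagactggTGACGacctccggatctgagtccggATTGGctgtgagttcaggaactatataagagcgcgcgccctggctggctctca
Psmb9-Tap1: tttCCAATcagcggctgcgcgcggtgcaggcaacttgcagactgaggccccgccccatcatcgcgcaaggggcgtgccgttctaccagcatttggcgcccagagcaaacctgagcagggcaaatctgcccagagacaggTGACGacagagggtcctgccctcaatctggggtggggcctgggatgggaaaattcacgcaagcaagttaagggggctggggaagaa

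In H2-K1 and H2-D1 the first form of the NF-kB site and the second form of the interferon response element stood in the same order, and 87.4% of 190 positions were identical when the windows were aligned with an offset of 60 bases. B2m held the first form of the interferon response element 139 bases before its start and, on the other strand, the second form of the NF-kB site, which was added to the search after the window had been read. All 3 windows held TGACG followed 25 bases later by ATTGG, the NF-Y box read on the other strand, a pair that belongs to the known SXY module of class I promoters. That spacing was noticed in these windows and then counted over all windows, where 18 of 32851 (0.0548%) held it on the strand of the gene, from 15 symbols that included H2-M3, another class I gene. Over all windows of this length, 7.13% held the first and 6.31% the second form of the interferon response element, 7.02% the STAT site, 4.98% the first and 4.65% the second form of the NF-kB site, 17.8% the CREB box and 33.8% the NF-Y box. Among the other genes, the STAT site was matched upstream of Psmb8 and Irf1.

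**Figure D1:**
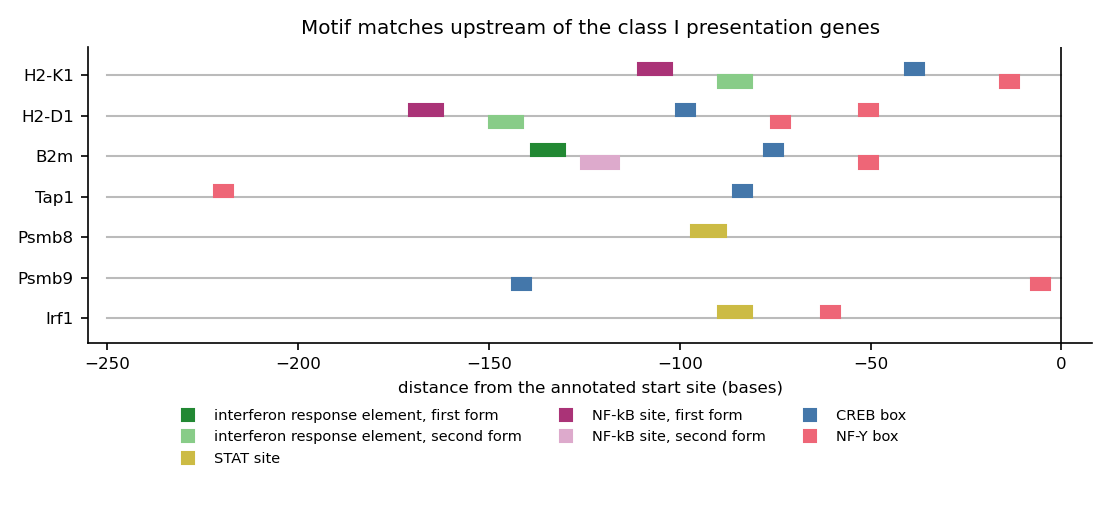
Matches to 7 motif forms in the 250 bases before the annotated start of 7 genes, as distance from the start in bases. Boxes above the line match on the strand of the gene and boxes below it on the other strand, and H2-K1, H2-D1 and B2m share a CREB box and an NF-Y box 25 bases apart.

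None of the 9 genes passed the test of MOTS-c against scrambled. The genes of the class I molecule lay higher on both MOTS-c arrays, by 1.23-fold for H2-K1, 1.27-fold for H2-D1 and 1.32-fold for B2m, as did the immunoproteasome subunit Psmb9 by 1.15-fold. Tap2, a chain of the peptide transporter, lay lower on both MOTS-c arrays by 1.13-fold, and the transcription factor Irf1 lay lower by 1.09-fold. Tap1, Psmb8 and Nlrc5 overlapped between the groups. Of the 14 probes, 12 were read well above background on each of the 4 arrays and were tested, with adjusted p between 0.682 and 0.946 (limma, Benjamini-Hochberg over 35087 probes). 0 of the 12 had an adjusted p under 0.05, the level that 0% of all probes reached. In the same fit 0 had an unadjusted p under 0.05, against 2755 of the 35087 probes, and 0 changed by at least 1.5-fold. Past both of these levels together were 1.10% of all probes in the higher direction and 2.43% in the lower. Both MOTS-c arrays were above both scrambled arrays for 5 member probes, against 19.4% of all probes, and below them for 2, against 18.6%. In limma with a trend of the variance on signal, 4 of the 12 had an unadjusted p under 0.05. They were H2-D1 (0.00873), both H2-K1 probes (0.0307 and 0.0463) and B2m (0.0368). After normexp background correction 2 had, H2-D1 (0.0285) and B2m (0.0428) in limma, and 0 passed the adjusted level under either. The share of all probes with such an unadjusted p was not counted under either setting, so these counts are not a result about the members. The H2-K1 and H2-D1 probes among them may also read a shared signal. With 2 arrays per group an exact two-sided permutation test cannot give a p under 0.333, and the p-values measure the spread between these arrays only.

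**Figure D2:**
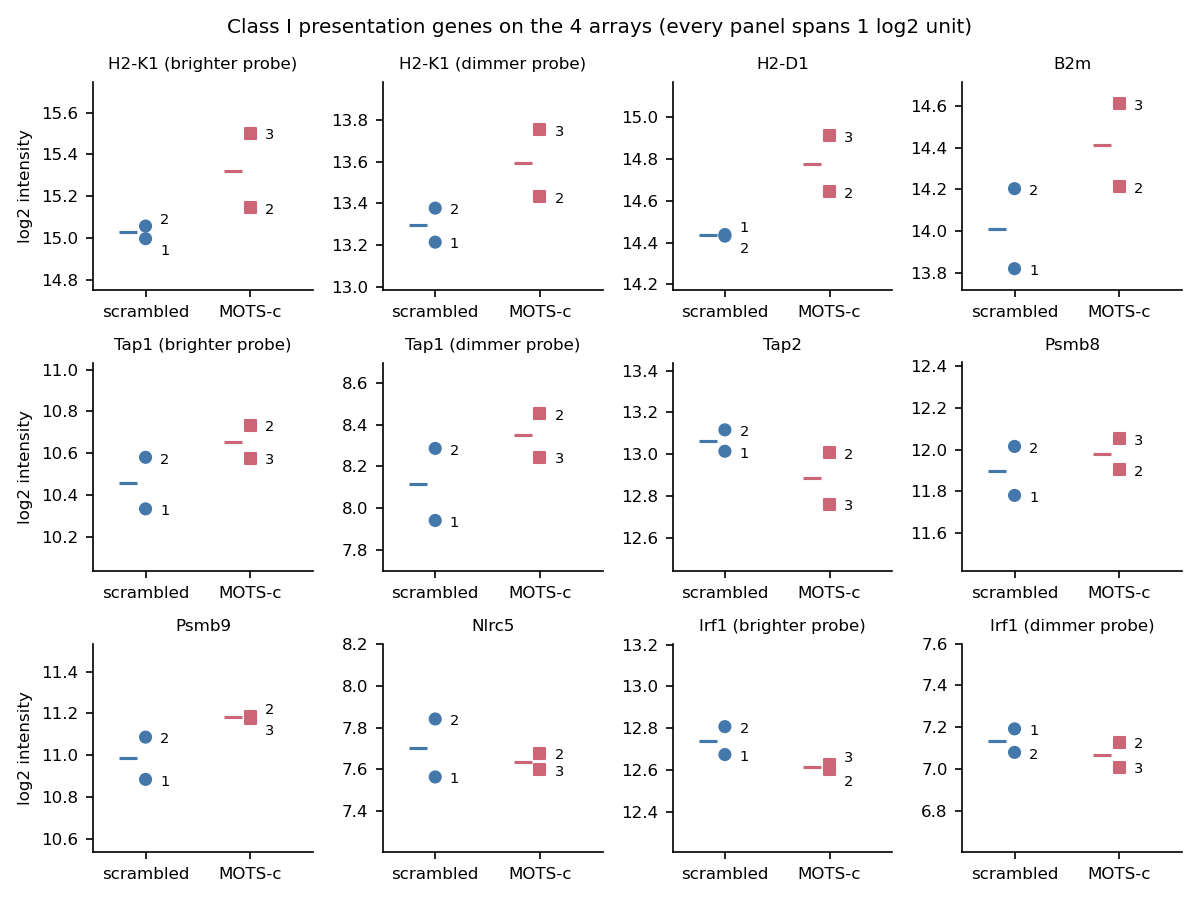
Quantile-normalized log2 intensity of the 12 tested probes on each array, with circles for scrambled, squares for MOTS-c, the replicate number beside each point and a short bar at each group mean. Every vertical axis spans 1 log2 unit, and MOTS-c replicate 3 is the highest array for H2-K1, H2-D1 and B2m while Tap2 and Irf1 (brighter probe) lie lower with MOTS-c.

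H2-K1 encodes the heavy chain of the classical class I molecule H-2K. Its brighter probe (A_51_P198434) read a log2 intensity of 15.00 and 15.06 on scrambled replicates 1 and 2 and 15.14 and 15.50 on MOTS-c replicates 2 and 3. The groups did not overlap, with a gap of 0.087, but the MOTS-c arrays differed from each other by 0.36. This gave a log2 fold change of 0.30 ± 0.17 (SE, n = 2 per group), with a 95% interval from -0.14 to 0.74 and an adjusted p of 0.741 in limma. A second H2-K1 probe (A_55_P2049647) read 13.21 and 13.38 with scrambled and 13.43 and 13.75 with MOTS-c, and its log2 fold change was also 0.30 ± 0.17 (SE). Both probes therefore placed the arrays in the same order.

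H2-D1 encodes the heavy chain of H-2D. Its probe (A_65_P19395) read a log2 intensity of 14.44 and 14.43 with scrambled and 14.64 and 14.91 with MOTS-c replicates 2 and 3. The gap between the groups was 0.21, the widest among the members, and the scrambled arrays differed by 0.0076. H2-D1 had a log2 fold change of 0.34 ± 0.15 (SE), with a 95% interval from -0.042 to 0.73, an unadjusted p of 0.0702 in limma and an adjusted p of 0.682, the lowest of the member probes. For H2-D1 the difference between the groups exceeded the difference within each of them, which for the MOTS-c arrays was 0.27.

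B2m encodes beta-2-microglobulin, the light chain that all class I heavy chains need to fold and reach the surface. Its probe (A_51_P129012) read a log2 intensity of 13.82 and 14.20 with scrambled and 14.21 and 14.61 with MOTS-c. Scrambled replicate 2 and MOTS-c replicate 2 were 0.0086 apart, so the groups just failed to overlap. B2m had a log2 fold change of 0.40 ± 0.22 (SE), with a 95% interval from -0.17 to 0.97 and an adjusted p of 0.731 in limma, and the arrays of a group differed by 0.38 and 0.40.

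The signal of the class I molecule was highest on MOTS-c replicate 3. Among the 9 genes of class I chains tested (B2m, H2-K1, H2-D1 and the further heavy chains H2-Q4, H2-Q7, H2-Q10, H2-T22, H2-T23 and H2-M3), 7 were highest on that array, compared with 28.4% of all probes tested. This count was made after the values had been seen. Heavy chain probes may read a shared signal, so the 9 genes are not independent readings, here or in the next count. MOTS-c replicate 2 lay above the scrambled mean for 8 of the 9, compared with 54% of all probes. MOTS-c replicate 3 lay above it by 0.47 for H2-K1, 0.48 for H2-D1 and 0.60 for B2m on the log2 scale. Without MOTS-c replicate 3 the log2 fold changes were 0.12 for H2-K1, 0.21 for H2-D1 and 0.20 for B2m. Across all probes this array also differed most from the others, with a median absolute log2 difference of 0.19 to 0.24 from them, against 0.16 to 0.17 between the remaining arrays. Its part in these differences was not tested beyond leaving the array out.

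**Figure D3:**
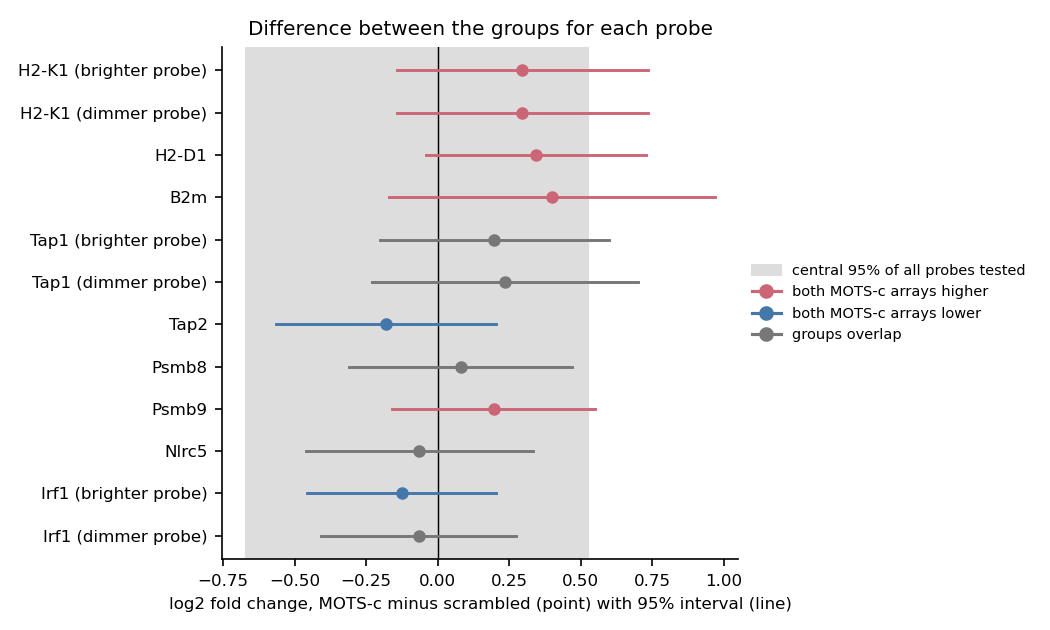
Log2 fold change of each tested probe, MOTS-c minus scrambled (point), with its 95% interval from limma (line), and the central 95% of the log2 fold changes of all probes (grey band, -0.67 to 0.52). All 12 intervals include 0, and all 12 points lie inside the band.

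The TAP transporter is a dimer of the chains encoded by Tap1 and Tap2, and their point estimates had opposite signs. The brighter Tap1 probe (A_66_P125929) read a log2 intensity of 10.33 and 10.58 with scrambled and 10.73 and 10.58 on MOTS-c replicates 2 and 3. Here MOTS-c replicate 2 was the highest array, and MOTS-c replicate 3 lay level with scrambled replicate 2. The log2 fold change of Tap1 was 0.20 ± 0.15 (SE), with an adjusted p of 0.801 in limma. The dimmer Tap1 probe (A_51_P100327) gave the same order of arrays, with 7.94 and 8.29 for scrambled and 8.45 and 8.24 for MOTS-c, and a log2 fold change of 0.24 ± 0.18 (SE).

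Tap2 was read by a probe (A_55_P2017645) with a log2 intensity of 13.01 and 13.12 with scrambled and 13.01 and 12.76 on MOTS-c replicates 2 and 3. The groups were separated by 0.0067 after normalization and overlapped in the intensities before it, where MOTS-c replicate 2 read 8500 and scrambled replicate 1 read 8440. The log2 fold change was -0.18 ± 0.15 (SE), with a 95% interval from -0.57 to 0.20 and an adjusted p of 0.815 in limma. A second Tap2 probe (A_51_P240654) was not well above background on any array and was not tested. The lower Tap2 mean came mostly from MOTS-c replicate 3, without which the log2 fold change was -0.058.

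Psmb8 and Psmb9 encode catalytic subunits that replace their constitutive counterparts in the immunoproteasome. Psmb9 (A_51_P369803) read a log2 intensity of 10.88 and 11.09 with scrambled and 11.18 and 11.18 with MOTS-c. Both MOTS-c arrays were higher, by a gap of 0.091, and differed from each other by only 0.0080. The log2 fold change of Psmb9 was 0.20 ± 0.13 (SE), with a 95% interval from -0.16 to 0.55 and an adjusted p of 0.782 in limma. Psmb8 (A_51_P345367) read 11.78 and 12.02 with scrambled and 11.90 and 12.05 with MOTS-c. These values interleaved, and the log2 fold change of Psmb8 was 0.081 ± 0.15 (SE), with an adjusted p of 0.930. Psmb9 and Tap1, which share the stretch of DNA printed above, differed by 0.20 each, but the order of their arrays was not the same.

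Nlrc5 encodes the transactivator that drives class I genes through the SXY module. Its brighter probe (A_55_P2016034) read a log2 intensity of 7.56 and 7.84 with scrambled and 7.68 and 7.60 with MOTS-c, which placed both MOTS-c arrays between the scrambled ones. Nlrc5 had a log2 fold change of -0.065 ± 0.15 (SE), with a 95% interval from -0.46 to 0.33 and an adjusted p of 0.946 in limma. The signal of this probe was 5.56 to 7.25 times its background. A second Nlrc5 probe (A_66_P113043) was well above background on MOTS-c replicate 3 alone and was not tested.

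Irf1 was read by 2 probes. The brighter one (A_55_P2000062) read a log2 intensity of 12.67 and 12.81 with scrambled and 12.60 and 12.63 with MOTS-c. Both MOTS-c arrays were lower, by a gap of 0.048, and the log2 fold change was -0.13 ± 0.13 (SE), with a 95% interval from -0.46 to 0.20 and an adjusted p of 0.848 in limma. The dimmer probe (A_52_P175685) read 7.19 and 7.08 with scrambled and 7.13 and 7.01 with MOTS-c, and its groups overlapped. Its log2 fold change was -0.067 ± 0.13 (SE). Neither regulator of the pathway thus lay on the same side as the heavy chain genes, in point estimates whose intervals include 0.

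Taking each gene by its brightest probe, the median log2 fold change of the 9 members was 0.20, beside 0.014 over all probes tested. The median was 0.34 for the 3 genes of the class I molecule, 0.14 for the immunoproteasome pair, 0.0088 for the transporter pair and -0.095 for the 2 regulators. It moved with single arrays, to 0.075 without scrambled replicate 1, 0.30 without scrambled replicate 2 and 0.12 without MOTS-c replicate 3. Scrambled replicate 1 was the lowest array for 8 of the 12 member probes. The share of all probes lowest on it was not counted, and it was the highest array for 19.2% of them. Scaling by the 75th percentile in place of the quantile step gave log2 fold changes of 0.23 for H2-K1, 0.28 for H2-D1 and 0.34 for B2m, and the brighter H2-K1 probe and the B2m probe then overlapped between the groups while the brighter Tap1 probe did not. After normexp background correction the gene-level count without overlap was 5 higher, with Tap1 added, and 0 lower, against 19.8% and 19.5% of all probes. Before normalization, 9 of the 12 member probes did not overlap between the groups, and both Tap1 probes and Psmb8 were then higher on both MOTS-c arrays. The share of all probes was not counted there, so this count is not a result about these genes. Unnormalized intensities also carry the level of each array. Median log2 intensities of the gene spots also differed between arrays, at 6.08 and 5.93 with scrambled and 5.99 and 6.17 with MOTS-c.

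**Figure D4:**
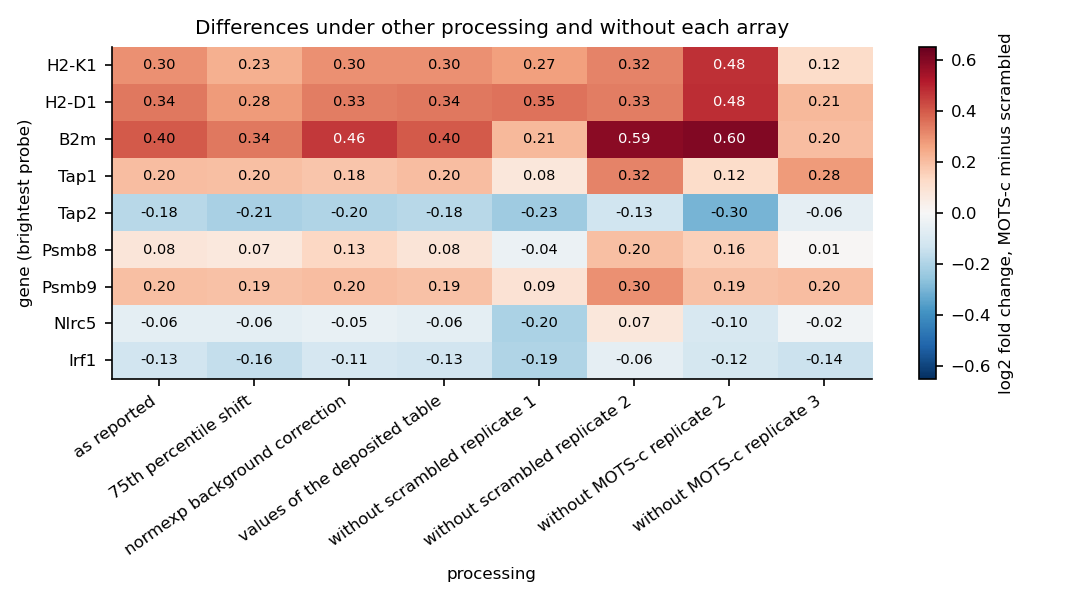
Log2 fold change (MOTS-c minus scrambled) of the brightest probe of each gene as reported, under 3 other ways of processing and without each array in turn. H2-K1, H2-D1 and B2m are positive in every column, from 0.12 to 0.60, and Psmb8 and Nlrc5 change sign without a scrambled array.

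The wider class I machinery was counted in a list of 16 further genes, 14 of them tested. Both MOTS-c arrays were higher for 4, lower for 3 and overlapped with scrambled for 7, near the 19.4% and 18.6% of all probes, and 0 passed an adjusted p of 0.05. The highest were H2-Q7, a non-classical heavy chain of the Q region, with a log2 fold change of 0.30 ± 0.15 (SE, adjusted p = 0.711 in limma), and H2-Q10, which encodes a secreted heavy chain, with 0.25 ± 0.16 (SE, adjusted p = 0.759). Lowest were the peptide editors of the loading step, Tapbpl with -0.19 ± 0.12 (SE, adjusted p = 0.766 in limma) and Tapbp with -0.16 ± 0.12 (SE, adjusted p = 0.806). Tapbp encodes tapasin, and both genes were lower on each MOTS-c array by their brightest probes. A dimmer Tapbp probe had -0.059 and dimmer H2-Q7 probes had 0.28 and 0.070, all overlapping between the groups. Dimmer H2-Q10 probes had 0.14, 0.19 and 0.32. The median of the list was 0.054. Of the 6 heavy chain genes in the list, 5 had a positive log2 fold change, the exception being H2-M3 with -0.14, which is named after its value was seen. Heavy chain genes are close in sequence, and probe sequences were not used here, so probes for H2-K1, H2-D1 and the H2-Q genes may read a shared signal.

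Constitutive catalytic subunits of the proteasome lay near 0. Psmb5, Psmb6 and Psmb7, which Psmb8, Psmb9 and Psmb10 replace, had log2 fold changes of -0.032 ± 0.12, 0.0018 ± 0.13 and 0.0073 ± 0.12 (SE) and overlapped between the groups. The signs of all 3 changed with the processing or an array left out. Psmb10, counted among the further class I genes, had -0.16 ± 0.15 (SE, adjusted p = 0.84 in limma) and overlapped between the groups. Against the constitutive values, the 0.20 of Psmb9, the 0.081 of Psmb8 and the -0.16 of Psmb10 were not tested.

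Genes that carry the interferon signal upstream of Irf1 and Nlrc5 were all tested, 12 of 12, with a median log2 fold change of 0.024. Both MOTS-c arrays were higher for 4 and lower for 2, beside 19.4% and 18.6% of all probes, and 0 had an unadjusted p under 0.05. Stat2, a subunit of the factor activated by type I interferon, had 0.34 ± 0.16 (SE, adjusted p = 0.696 in limma), and the receptor kinase Jak2 had 0.28 ± 0.17 (SE, adjusted p = 0.748). Irf2, an antagonist of Irf1 at many sites, had -0.25 ± 0.13 (SE, adjusted p = 0.711), and Socs1, a feedback inhibitor of JAK kinases, had -0.084 ± 0.18 (SE, adjusted p = 0.943).

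Interferon-induced genes gave a mixed picture. Of 20 listed, 14 were tested, with a median log2 fold change of -0.021, and both MOTS-c arrays were higher for 5 and lower for 3, beside 19.4% and 18.6% of all probes. The guanylate-binding protein Gbp3 read a log2 intensity of 6.49 and 6.28 with scrambled and 6.74 and 6.97 with MOTS-c, a log2 fold change of 0.47 ± 0.16 (SE, adjusted p = 0.578 in limma). Gbp7 was the one gene of the list past an unadjusted p of 0.05 and 1.5-fold, with 4.53 and 4.05 for scrambled, 4.82 and 5.23 for MOTS-c and a log2 fold change of 0.74 ± 0.24 (SE, adjusted p = 0.571), but its signal was 1.46 times background on scrambled replicate 1 and it was well above background on 3 of the 4 arrays. Gbp7 missed that level after normexp (0.19), without a filter, with a trend (unadjusted p = 0.0512 in limma), by the methods' t-test, without scrambled replicate 2 (0.50) and without MOTS-c replicate 3 (0.53). Usp18, which dampens type I interferon signaling, had -0.31 ± 0.17 (SE, adjusted p = 0.731) and the interferon-induced GTPase Igtp had -0.22 ± 0.13 (SE, adjusted p = 0.740). Ifit1, Gbp2, Iigp1 and Cxcl9 were not well above background on enough arrays to be tested.

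Among the genes of the pathway lists, Relb had the lowest unadjusted p. It encodes the transcription factor subunit of the non-canonical NF-kB pathway and read a log2 intensity of 9.95 and 9.89 with scrambled and 9.43 and 9.22 with MOTS-c, so that both MOTS-c arrays lay clearly below both scrambled ones. Its log2 fold change was -0.60 ± 0.14 (SE), with an unadjusted p of 0.00863 in limma and an adjusted p of 0.512, which did not pass, and at 1.51-fold it was among the 2.43% of all probes past the unadjusted level and 1.5-fold in the lower direction. It left that set without scrambled replicate 1, at -0.57, and without MOTS-c replicate 3, at -0.49. A second Relb probe gave -0.47 ± 0.15 (SE). Nfkb2, the precursor that pairs with RelB, was also lower on both MOTS-c arrays by both of its probes, at -0.29 ± 0.13 (SE, adjusted p = 0.691) for the brighter. The canonical subunits Rela and Rel had 0.040 ± 0.12 and 0.047 ± 0.15 (SE) by their brightest probes and overlapped between the groups. A dimmer Rela probe was higher on both MOTS-c arrays, by 0.10, and the Rel probe read only 1.65 to 2.14 times background. Over the 7 genes the median log2 fold change was 0.020, with 0 higher and 3 lower on both MOTS-c arrays, beside 19.4% and 18.6% of all probes. The NF-kB sites printed for H2-K1, H2-D1 and B2m are sequence matches, and no binding was measured.

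**Figure D5:**
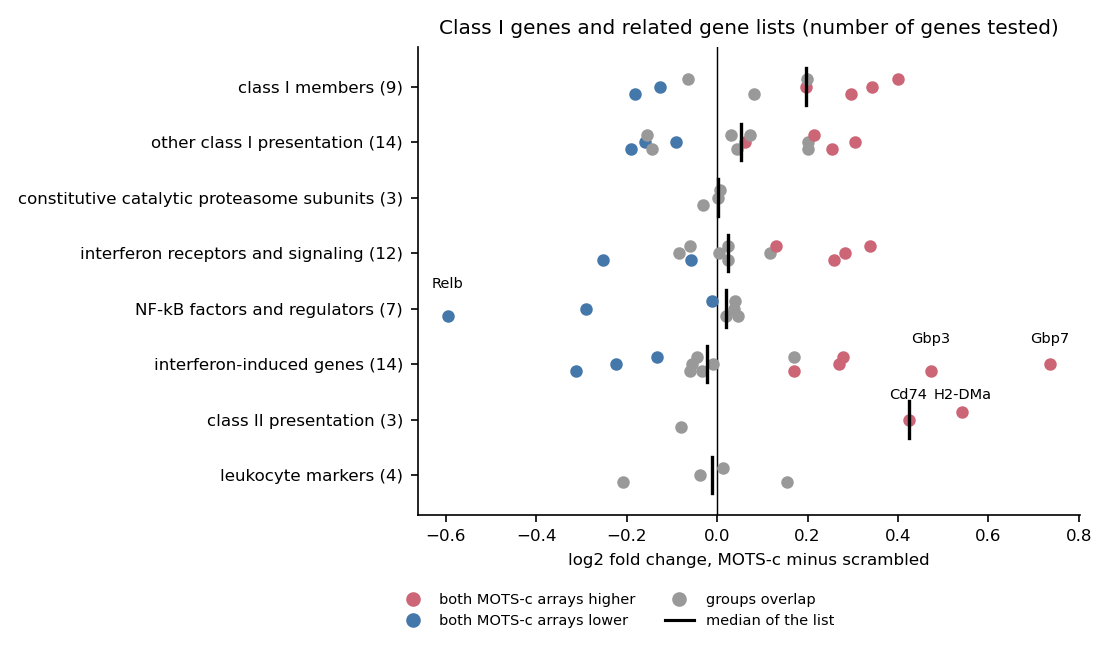
Log2 fold change (MOTS-c minus scrambled) of every tested gene by its brightest probe, for the 9 members and 7 related lists, with the number of genes tested in parentheses and a bar at each median. The members' median of 0.20 is above those of the other lists plotted except class II presentation, whose median is the value of Cd74, a probe read well above background on the MOTS-c arrays alone.

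Immune cells carry class I molecules at a high level, and their markers were read on the same arrays. Of 12 leukocyte markers, 8 were not well above background on enough arrays to be tested, among them Ptprc, the pan-leukocyte gene, with none of its probes well above background on any array, and likewise Cd8a, Cd79a, Adgre1, Itgax, Lyz2 and Tyrobp. The 4 tested, Cd3e, Cd68, Itgam and Csf1r, overlapped between the groups by their brightest probes, with a median log2 fold change of -0.012, while a dimmer Cd3e probe lay higher on both MOTS-c arrays, by 0.49. Their summed signal was 9940 and 11500 with scrambled and 9440 and 11600 with MOTS-c. Most of that sum was 1 Itgam probe, with an intensity of 5740 to 8620. A dimmer Itgam probe read only 29.9 to 50.4, with a log2 fold change of -0.37 ± 0.25 (SE) and groups that overlapped. Of the remaining cell types, 3 of 6 endothelial markers were tested with a median of 0.0092, 3 of 6 mesenchymal markers with a median of -0.30 and 3 of 8 ductal and acinar markers with a median of -0.40. Their summed signals ran from 1950 to 2430 and 1910 to 2300 for the endothelial, 5130 to 5620 and 4820 to 4840 for the mesenchymal and 3620 to 3960 and 2050 to 2560 for the ductal and acinar markers, scrambled first, and the sums of the last 2 were lower on both MOTS-c arrays. Of these genes, the mesenchymal receptor Pdgfra had a log2 fold change of -1.04 ± 0.33 (SE, adjusted p = 0.567 in limma) and the pancreatic elastase Cela1, which made up most of the ductal and acinar sum, -0.76 ± 0.16 (SE, adjusted p = 0.499), while Ctrb1, a chymotrypsinogen, was higher on both MOTS-c arrays by 0.33. The part of these cells in the class I values was not tested. All 11 islet endocrine markers were tested, with a median log2 fold change of 0.022, and the insulin genes Ins1 and Ins2 were read well above background on every array. Both MOTS-c arrays were higher for 4 of them and lower for 3, beside 19.4% and 18.6% of all probes. The higher were Iapp with a log2 fold change of 0.072, Gcg with 0.11 and the transcription factors Nkx6-1 with 0.12 and Mafa with 0.16. The lower were Ins1 at -0.039, the transcription factor Pdx1 at -0.28 ± 0.13 (SE, adjusted p = 0.694 in limma) and the glucose transporter gene Slc2a2. Slc2a2 had -1.33 ± 0.14 (SE, adjusted p = 0.474 in limma, the smallest of all probes), but its probe read near background. Its signal was 1.85 and 2.30 times background with scrambled and 1.31 and 1.33 times with MOTS-c. The probe was well above background on 3 of the 4 arrays, only 1 of them with MOTS-c.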

How the data were processed

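RNA of 4 islet cell samples was read on one-color Agilent mouse arrays, grouped and numbered from the sample labels. The authors amplified and Cy3-labeled the RNA and deposited the intensity of each spot from Feature Extraction (version 11.0.1.1), background corrected within the array and not normalized between arrays. A deposited series table held the same intensity values rounded.

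Control spots and outlier spots were removed, intensities were log2 transformed and averaged per probe, and 35087 probes were kept that 2 or more of the 4 arrays read well above background, and quantile normalized. MOTS-c was compared with scrambled in limma (version 3.58.1, R 4.3.3) with Benjamini-Hochberg adjustment over all probes, with 2 residual and 2.64 prior degrees of freedom. An outlier spot left 3 probes without a value on an array. The steps were tested on simulated data. Of 56605 gene probes, 33006 matched a symbol in the RefSeq gene table of GRCm38.p6. The array is annotated on another build, so positions are given for RefSeq windows only. All member probes are named, and of each further list the 2 highest and 2 lowest genes and any past an unadjusted p of 0.05 with 1.5-fold, a gene standing by its brightest probe. Of the cell type markers, lists are summarized. Members and lists were chosen with earlier results of these data known. Alternatives were a 75th percentile shift, normexp (offset 50, on median signals), the deposited table, no filter or a filter on all 4 arrays, each array left out, limma with a trend, the methods' t-test and the mean over a gene's probes. Spot intensities of tested member probes carried an error of 10.0% to 10.4% in the files, and the number of arrays limits the precision. The labels name 4 littermates and n = 2 per group.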

Additional observations from a re-analysis of the deposited data

How the results depend on the processing

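Under the alternatives that kept all 4 arrays, 84 values of member probes kept their direction and stayed short of the threshold. Of 48 values without 1 array, 2 turned, to -0.037 for Psmb8 without scrambled replicate 1 and 0.075 for Nlrc5 without scrambled replicate 2. Without 1 array, log2 fold changes ran from 0.12 to 0.48 for H2-K1 (0.14 to 0.45 for its dimmer probe), 0.21 to 0.48 for H2-D1, 0.20 to 0.60 for B2m, 0.075 to 0.32 for Tap1 (0.064 to 0.41), -0.30 to -0.058 for Tap2, -0.037 to 0.20 for Psmb8, 0.094 to 0.30 for Psmb9, -0.20 to 0.075 for Nlrc5 and -0.19 to -0.057 for Irf1 (-0.13 to -0.0080), and the median of the members ran from 0.075 to 0.30.

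The methods' t-test called 1 probe of 35087 at an adjusted p of 0.05 where limma called 0, and 2312 at an unadjusted p under 0.05 where limma had 2755. Past an unadjusted p of 0.05 and 1.5-fold there were 1239 probes (387 higher, 852 lower), 457 by the t-test (127 higher, 330 lower), 406 after normexp (75 higher, 331 lower), 672 higher without a filter, 226 higher with the filter on all 4 arrays, and 1374 to 3264 without 1 array. Groups did not overlap for 13329 probes, 21525 without a filter and 22424 to 26578 without 1 array, where the group has fewer values to overlap. The cause of the other shifts was not tested.

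Several list genes near 0 turned sign. The 75th percentile shift gave Psmb6 -0.064, Psmb7 -0.033 and Rela -0.023, normexp gave Psmb6 -0.071, Psmb7 -0.067, Rela -0.020 and Rel -0.024, and the deposited table gave Psmb6 -0.0063. Without 1 array, log2 fold changes ran from -0.069 to 0.0076 for Psmb5, -0.052 to 0.06 for Psmb6, -0.052 to 0.067 for Psmb7, -0.29 to 0.12 for Socs1, -0.018 to 0.099 for Rela, -0.088 to 0.18 for Rel and -0.26 to 0.097 for H2-Eb1.

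No paired analysis was possible because the groups share 1 replicate number. No slide block was fitted, as there was 1 slide.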

Other observations

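Class II presentation genes, which display peptides taken up from outside the cell and belong mainly to professional antigen-presenting cells, were near the detection limit. Of 7 listed, 3 were tested, and H2-Aa, H2-Ab1, H2-DMb1 and the class II transactivator Ciita were not well above background on enough arrays. H2-DMa, a chain of the class II peptide editor, read a log2 intensity of 6.25 and 6.40 with scrambled and 6.81 and 6.94 with MOTS-c, a log2 fold change of 0.54 ± 0.13 (SE, adjusted p = 0.526 in limma), and did not pass the threshold. Cd74, the invariant chain, was well above background on both MOTS-c arrays and on neither scrambled array, so it entered the test through the MOTS-c arrays alone and its log2 fold change of 0.42, which was 0.030 after normexp, is given without a test. H2-Eb1 had a log2 fold change of -0.08 ± 0.19 (SE, adjusted p = 0.945) and overlapped between the groups.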
